A study of Rattus norvegicus with 24 samples.

Results

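Extraocular muscles (EOM), the small muscles that turn the eye, were compared between rats of 30 months and rats of 18 months. The comparison rests on the 4 arrays whose titles give EOM at 30 months and the 4 whose titles give EOM at 18 months, 8 of the 24 arrays of the series. All 8740 probe sets that are not hybridisation controls were considered, and 5362 of them were bright enough in EOM to be tested. The series holds EOM and the extensor digitorum longus (EDL), a fast muscle of the hindlimb, at 6, 18 and 30 months, with 4 arrays for each muscle and age. No group carries a treatment or a mutation, and the rats' strain and sex are not given in the sources used here. Each RNA sample combined tissue of 4 animals, so the spread between arrays is a spread between pools, and the variation among single rats within a pool was not measured.

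The extraocular muscles are built unlike limb muscle. Their fibres mix fast and slow myosins with embryonic, neonatal and cardiac forms and with an extraocular myosin, some fibres receive several nerve endings, and the muscles lie among fat, glands and connective tissue of the orbit. They are known for being spared in several diseases that waste limb muscle, and the question of the study is how their gene expression shifts with age. The interval described here is late life, after 18 months.

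The labelled tissue was borne out by its markers. Myh13, the extraocular myosin, read 10667 to 19960 over the 12 EOM arrays and always stood above the 98.6th percentile of its array. Myh3, the embryonic myosin, read 18220 to 37564, and Acta1, skeletal muscle actin, read 17942 to 32835. Arrays of different ages lay close to each other: the nearest neighbour of 9 of the 12 EOM arrays, by Spearman correlation, was an array of another age, and in 8 of these 9 it carried the same replicate number. The closest pair was replicate 1 at 30 months and replicate 1 at 18 months, with a correlation of 0.979, where the highest within an age was 0.962. The 3′ to 5′ ratio of beta-actin, a measure of RNA integrity, ran from 1.13 to 1.62 over these arrays. The study calls the 4 samples of a group independent replicates, but the labels do not say what a replicate number stands for.

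Between 18 and 30 months, the expression of very few genes in EOM changed beyond the spread between pools. The gene C3, which encodes the central component of the complement cascade, was the one gene called, and it rose. No probe set was called lower. In all, 1 of 5362 probe sets (0.0186%) passed an adjusted p of 0.05 in limma with Benjamini-Hochberg adjustment. At an unadjusted p under 0.05, 171 probe sets (3.19%) passed, 109 of them higher at 30 months (2.03%) and 62 lower (1.16%). Where nothing changes, a share of about 0.05 falls under that threshold, so the share seen was not above it. With the replicate number as a block, 3 probe sets (0.0559%) were called, all higher: C3, Xylt2 and Klk1.

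The precision of the comparison sets what such a count can show. The median standard error of a log2 change was 0.25, and the median half-width of its 95% interval was 0.53. For 4108 probe sets (76.6%) the whole interval lay inside 2-fold in either direction. The other 1254 probe sets, C3 among them, had intervals that reached beyond 2-fold. The central 90% of the log2 changes ran from -0.45 to 0.51, around a median of -0.03.

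**Figure D1:**
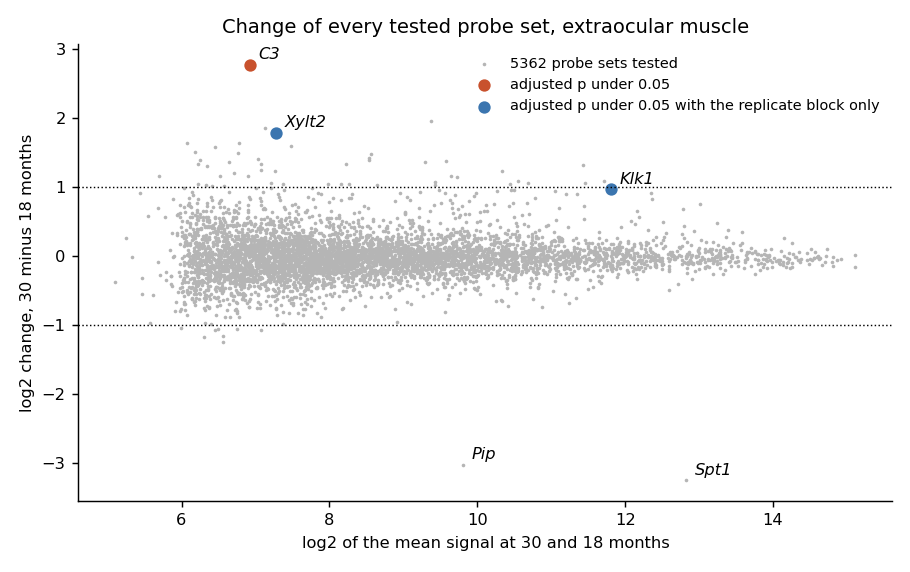
Log2 change between 30 and 18 months in EOM against the log2 of the mean signal, 1 point for each of the 5362 probe sets tested. Dotted lines mark 2-fold. C3 is called, Xylt2 and Klk1 are called with the replicate block only, and Spt1 and Pip have the 2 most negative changes without passing the test.

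C3 read 105.7, 231.4, 238.0 and 309.1 in the 30-month pools, against 24.7, 10.2, 38.9 and 11.1 in the 18-month pools. All the 30-month pools were above all the 18-month pools. At 18 months, replicates 2 and 4 lay below the floor of their arrays, the 25th percentile of the signals (24.5 to 32.9 at 18 months), so C3 was near the detection limit at that age and the fitted change depends on the floor. On the floored log2 scale the change was 2.77 (SE 0.39, adjusted p = 0.0235), and with the replicate block the adjusted p was 0.0203. It was 3.50 with the floor at the 10th percentile (adjusted p = 0.0280) and 2.21 on the log2(value + 32) scale (adjusted p = 0.0385), so the size is not settled although the call was made on each of these scales. The second C3 probe set gave 1.64 (unadjusted p = 0.00797) and was not called. In 6-month EOM, C3 read 225.6, 85.7, 260.0 and 148.7, which overlaps the 30-month range, and the change between 6 and 18 months was -2.46 (adjusted p = 0.0351). The comparisons of 18 with 6 and of 30 with 18 months share the 18-month arrays. Over all probe sets, 1 was called higher (0.0186%) and 4 lower (0.0746%) at 18 than at 6 months, and 2 higher (0.0373%) and 0 lower at 30 than at 6 months.

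The call of C3 was lost in 7 of the 8 fits that left out 1 array, while its direction was kept in all 8. Without replicate 1 at 30 months it was called with an adjusted p of 0.00561. Without any other single array (replicates 2, 3 or 4 at 30 months, or any of the 4 replicates at 18 months) the adjusted p lay between 0.0512 and 0.155, with a log2 change of 2.58 to 2.90.

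Several genes came next in order of p. Xylt2, a xylosyltransferase that starts glycosaminoglycan chains on proteoglycan core proteins, read 229.5, 238.9, 237.2 and 236.1 at 30 months, against 133.1, 54.8, 59.3 and 50.4 at 18 months. The groups did not overlap, and replicate 1 was the high pool of the 18-month group. Replicates 2, 3 and 4 at 18 months lay above the floor but below the 40th percentile of their arrays (67.2, 82.1 and 77.2). That percentile is the level asked for testing, so the size of the change rests on low 18-month signals. The log2 change of Xylt2 was 1.78 (SE 0.29, adjusted p = 0.0524), and it passed with the replicate block (adjusted p = 0.0293). Without replicate 1 at 18 months the change was 2.11, with an adjusted p of 0.00148. That was the only 1 of the 8 limma fits leaving out 1 array in which Xylt2 was called. In the other 7 the adjusted p reached 0.275. At 6 months Xylt2 read 257.2, 254.5, 242.7 and 169.1, all above the 18-month pools, with a change of -1.74 between 6 and 18 months (adjusted p = 0.0351).

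Klk1, tissue kallikrein, is a protease that releases kinins and is made in large amounts by salivary glands. Its level was 6242, 5484, 3935 and 3331 at 30 months, against 2879, 3078, 1996 and 1745 at 18 months. The pools of the 2 ages did not overlap, and within each replicate number the 30-month pool was the higher. The log2 change of 0.97 (SE 0.23) had an adjusted p of 0.869, and 0.0203 with the replicate block, which removes the shared ordering of the numbers. Klk1 was called in 0 of the 8 limma fits that left out 1 array (adjusted p of 0.378 or more). Unlike C3 and Xylt2, Klk1 at 6 months (2339, 3029, 2158 and 1870) overlapped the 18-month range. Kallikreins are a family of near-identical genes, so these probe sets can read relatives of Klk1. A second Klk1 probe set gave 0.63 (unadjusted p = 0.00283), and its EOM change minus its EDL change was -2.45 (adjusted p = 0.000908).

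Ttc38 read 279.9, 336.0, 494.6 and 622.4 at 30 months, against 182.6, 160.3, 157.2 and 157.7 at 18 months, a log2 change of 1.33 (adjusted p = 0.0781, and 0.0520 with the replicate block). Ugdh, which makes the UDP-glucuronic acid used for glycosaminoglycans and for detoxification, read 1140, 1902, 2462 and 2754 at 30 months, against 897.8, 732.1, 1122 and 989.4 at 18 months, a change of 1.08 (adjusted p = 0.869). In both genes replicate 1 was the lowest of the 30-month pools. Without it Ttc38 passed (adjusted p = 0.0210), as did Ugdh (adjusted p = 0.0386). Both failed in the other 7 limma fits that left out 1 array. There the adjusted p reached 0.426 for Ttc38 and 0.99969 for Ugdh. A second Ugdh probe set gave -0.04. Ppt1, a lysosomal thioesterase that strips palmitate from proteins, read 759.2 to 1820 at 30 months, against 635.8 to 704.8 at 18 months, with a log2 change of 0.80 that was not called (adjusted p = 0.881).

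**Figure D2:**
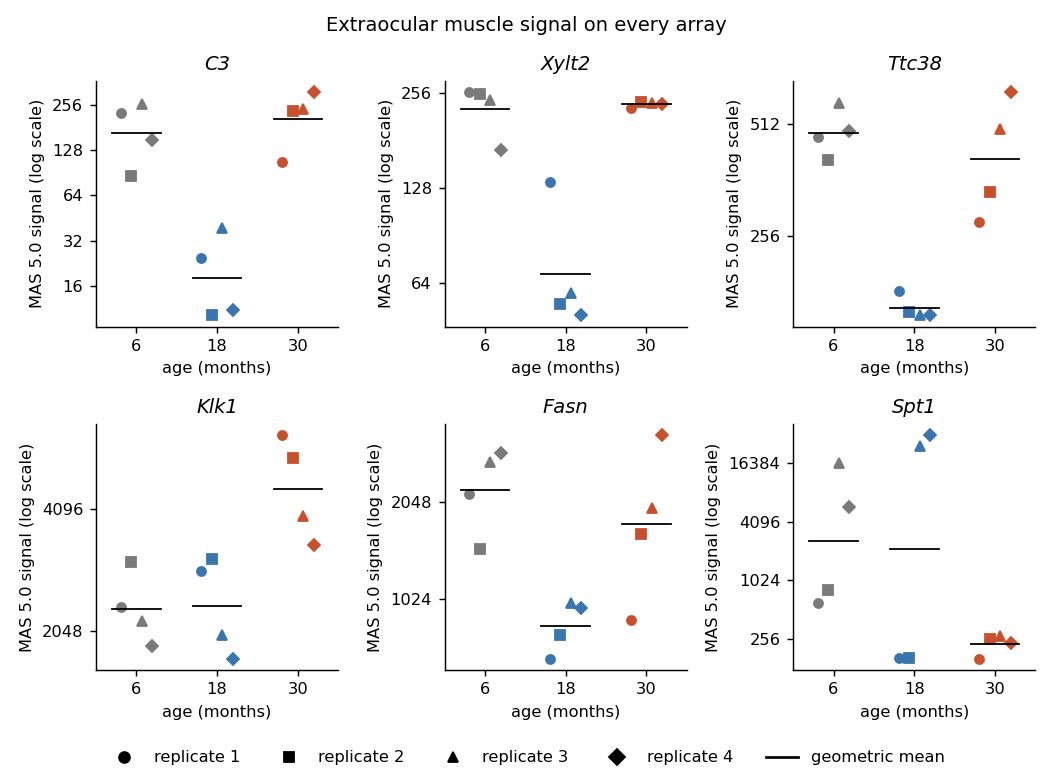
MAS 5.0 signal of 6 genes on every EOM array, by age in months, on log axes. Symbols give the replicate number and lines the geometric mean. C3, Xylt2, Ttc38 and Klk1 show no overlap between 30 and 18 months, while in Fasn replicate 1 at 30 months (882.6) falls within the 18-month range and Spt1 is high in replicates 3 and 4 at 18 months (24664 and 31849).

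On the lower side the 6 genes with the smallest p were Lum, Plpp3, Slc28a2, Ptgis, Col1a2 and Gap43, all with an adjusted p of 1.00. Lum encodes lumican, a proteoglycan of collagen fibrils, and read 1240, 1117, 751.1 and 884.6 at 30 months, against 1550, 1439, 2173 and 1107 at 18 months (log2 change -0.64). Its groups overlapped. Ptgis, prostacyclin synthase, read 122.0, 112.3, 67.4 and 110.1 at 30 months, against 172.5, 172.6, 140.9 and 166.5 at 18 months (-0.70), with no overlap. Gap43, a protein of growing and regenerating axons, read 133.6 to 156.2 at 30 months, against 196.2 to 307.0 at 18 months (-0.60), also with no overlap. The log2 changes of Plpp3, a lipid phosphate phosphatase, and Slc28a2, a nucleoside transporter, were -0.46 and -0.57. A second Plpp3 probe set gave -0.09, with overlapping groups.

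A rule after the study's design text asks that all 16 pairwise comparisons run in 1 direction and that the mean change exceed 2. It selected 8 probe sets higher at 30 months (0.149%) and 1 lower (0.0186%). Without the size limit, the groups did not overlap in 45 probe sets higher (0.839%) and 49 lower (0.914%). The 8 include C3, Xylt2, Ttc38, Ugdh and Pllp, and 3 probe sets without a single gene symbol. The lower one carries the name of Lct, which read 62.0 on average at 30 months and 127.7 at 18 months.

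Of 3214 named genes, 1 probe set each, 1 was called (0.0311%), and at an unadjusted p under 0.05 61 were higher (1.9%) and 37 lower (1.15%). The groups did not overlap in 0.871% of the named genes on the higher side and 0.685% on the lower side. Among them 30 had a fitted change above 2-fold, 26 of them higher at 30 months. In 25 of these 26 the level at 18 months was below that at 6 months, and in 18 the 30-month level lay between the 18-month and 6-month levels. These counts share the 18-month arrays in both steps, so a low value there enters both.

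The contractile apparatus showed no called change. In the fast sarcomere list 0 of 19 tested members were called, the median log2 change was -0.01, and 18 members had a 95% interval inside 2-fold. For comparison, 2538 of 3214 named genes (79.0%) had such an interval and their median was -0.03. Myh4, the fastest limb myosin, read 15397, 16238, 13350 and 17263 at 30 months, against 14911, 18217, 14378 and 15250 at 18 months (-0.01, 95% interval -0.31 to 0.29). Myh2, the fast oxidative myosin, gave 0.09 and the light chain Myl1 0.03. The member with the widest departure was Myh1 (0.56, not called), a low signal of 117.3 to 166.3 at 30 months, against 66.7 to 198.4 at 18 months.

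Slow and cardiac forms were as close. All 13 tested members of that list had intervals inside 2-fold, with a median of 0.00. Myh7, the slow myosin shared with the heart, gave -0.01 (interval -0.28 to 0.27), the cardiac myosin Myh6 -0.15 and the slow light chains Myl2 and Myl3 -0.10 and 0.03. Myosin genes are alike in sequence, and several of these probe sets are marked as shared between transcripts, so a level here can hold more than 1 gene.

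For the forms that set EOM apart from limb muscle the intervals were also narrow. Myh13 read 16476, 19960, 13386 and 13342 at 30 months, against 15716, 16204, 15288 and 15323 at 18 months, a log2 change of -0.01 (interval -0.35 to 0.34). Myh8, the neonatal myosin, gave 0.01 (-0.37 to 0.38), Myh3 -0.15 (-0.61 to 0.30), cardiac actin Actc1 -0.02 (-0.44 to 0.40) and Chrng, the foetal acetylcholine receptor subunit, -0.03 (-0.53 to 0.47). A second Myh3 probe set gave -0.33 (-0.65 to -0.02), an interval below 0, and was not called. Of the 20 tested members of the developmental and extraocular list, 17 had intervals inside 2-fold and none was called. The 2 members above 2-fold were picked here after their values were seen. Ctse, cathepsin E, read 1177, 1871, 3247 and 2754 at 30 months, against 731.8, 1050, 1265 and 1095 at 18 months (1.05, adjusted p = 0.881). Tc2n read 446.0 to 1873 at 30 months, against 277.4 to 570.6 at 18 months (1.38, adjusted p = 0.904). Both groups of values overlapped.

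**Figure D3:**
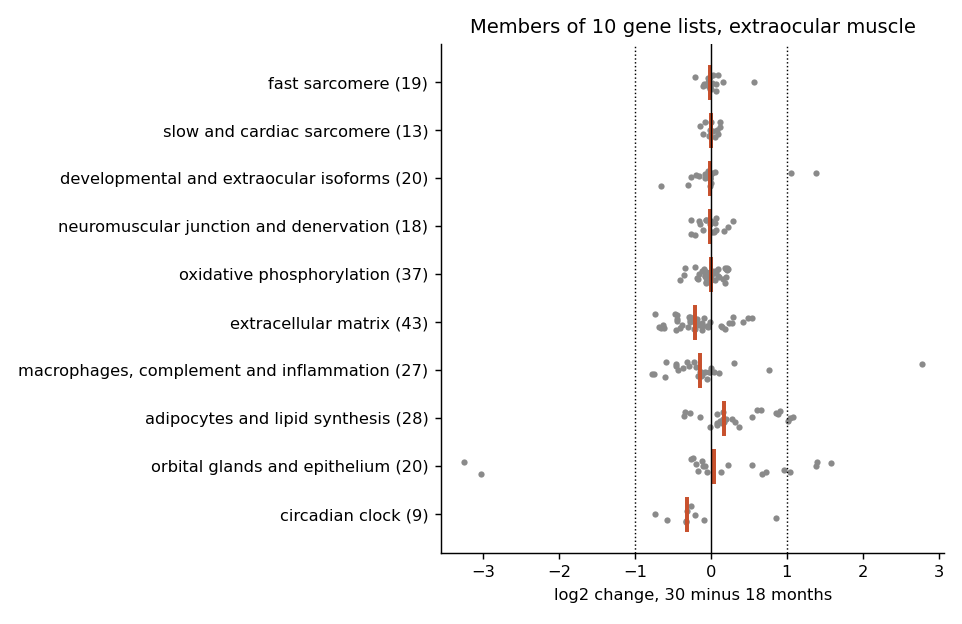
Log2 change between 30 and 18 months for the members of 10 gene lists, 1 point per gene, with the number tested in brackets and the median as a bar. Sarcomere, junction and respiratory chain genes cluster near 0 (medians -0.01 to 0.00). The lipid synthesis median is 0.17, the extracellular matrix median -0.21 and the clock median -0.31.

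Calcium handling and energy supply gave no calls. Of 30 calcium and excitation-contraction genes the median was 0.03, with the fast calcium pump Atp2a1 at -0.03 and the slow one, Atp2a2, at -0.22. Respiratory chain genes had a median of -0.0037 over 37 members, 36 with intervals inside 2-fold. Fatty acid oxidation and the citric acid cycle gave -0.03 over 44 and glycolysis -0.05 over 24. Antioxidant and detoxification genes had a median of 0.07 over 42 members, with the superoxide dismutases Sod1 and Sod2 at 0.03 and 0.10 and catalase (Cat) at 0.27. The membrane glutathione transferase Mgst1, picked after its value was seen, read 1722, 3660, 4025 and 6313 at 30 months, against 1505, 1628, 1880 and 1831 at 18 months (1.06, not called). Its replicate 1 at 30 months fell inside the 18-month range. Heat shock, proteasome and ribosomal lists had medians of 0.03, 0.02 and -0.02.

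The neuromuscular junction is the synapse through which the motor nerve commands the fibre, and a muscle that loses its nerve is known to raise acetylcholine receptor subunits, Gadd45a, Runx1 and myogenin (Myog) over the whole fibre. In EOM, 0 of 18 tested genes of the junction and denervation list were called, the median change was -0.01, and 17 had intervals inside 2-fold. Chrna1, the receptor's alpha subunit, read 2066, 1657, 1665 and 1699 at 30 months, against 1767, 1753, 1689 and 1674 at 18 months. Its log2 change was 0.04 (interval -0.27 to 0.34) and the groups overlapped. Chrnd, the delta subunit, gave 0.02 (-0.31 to 0.34), Chrnb1 -0.16 and the adult subunit Chrne -0.26. Gadd45a, a stress gene of denervated muscle, read 1977, 2217, 1656 and 1540 at 30 months, against 1626, 1533, 1517 and 1557 at 18 months, a change of 0.23 (-0.09 to 0.55). Runx1 gave 0.06, Myog 0.28, the determination factor Myod1 -0.10 and the growth inhibitor myostatin (Mstn) -0.09.

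EDL gave a different picture over the same interval. In the fit of all 24 arrays, 87 of 5741 probe sets were called higher in EDL at 30 than at 18 months (1.52%) and 2 lower (0.0348%). The EOM change minus the EDL change, tested as an interaction, passed for 19 of 5741 probe sets (0.331%): 2 were higher in EOM relative to EDL and 17 lower. In all 17, EDL itself was called higher, with log2 changes of 1.20 to 5.06, while the EOM changes ran from -0.33 to 0.63. These 17 include 13 with a gene symbol, from 11 genes: Ankrd1, B2m, Chrna1, Chrnd, Ctsl, Fst, Gadd45a, Igf2, Klk1, Myh3 and Slc29a1.

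Of the 18 junction genes, 3 were among them. Chrna1 read 5468, 4867, 2691 and 2703 in EDL at 30 months, against 400.3, 463.1, 480.8 and 318.5 in EDL at 18 months. The EOM change minus the EDL change was -3.15 (SE 0.42, adjusted p = 0.000184). At 18 months EOM already read 1674 to 1767, above the EDL pools of that age. For Gadd45a the difference was -2.81 (SE 0.36, adjusted p = 0.000179) and for Chrnd -2.18 (SE 0.48, adjusted p = 0.0372). Ankrd1, a stretch-responsive protein of the sarcomere and nucleus, had the largest difference among the named genes, -3.50 (SE 0.57, adjusted p = 0.00204). Ankrd1 averaged 176.2 in EOM at 30 months and 174.8 in EOM at 18 months, while EDL averaged 5698 at 30 months and 565.8 at 18 months. Follistatin (Fst), which binds and blocks myostatin, differed by -3.02 (SE 0.64, adjusted p = 0.0308), with an EOM change of 0.05.

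C3 and Xylt2 were the 2 that differed the other way, by 2.77 (SE 0.51, adjusted p = 0.00734) and 2.35 (SE 0.48, adjusted p = 0.0257). In EDL, C3 read 7.1, 19, 6.9 and 8.5 at 30 months, against 5.6, 6.5, 5.7 and 5.9 at 18 months, below the floor on all 8 arrays, so its EDL change is that of the floor. Xylt2 was a low signal in EDL, 27.6 to 78.3 at 30 months and 43.4 to 89.1 at 18 months. The call of Xylt2 held in 8 of 20 alternatives (adjusted p up to 0.0785), that of Chrnd in 6 (up to 0.119) and that of Fst in 6 (up to 0.0969). The call also depended on the setting for B2m (held in 5 of 20, adjusted p up to 0.228), Myh3 (7, up to 0.179), Igf2 (8, up to 0.162) and Slc29a1 (19, up to 0.138). The differences of C3, Chrna1, Gadd45a, Ankrd1, Ctsl and Klk1 passed under all 20. For Klk1 this holds for its second probe set, while its brightest probe set was not called for a difference between the muscles.

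**Figure D4:**
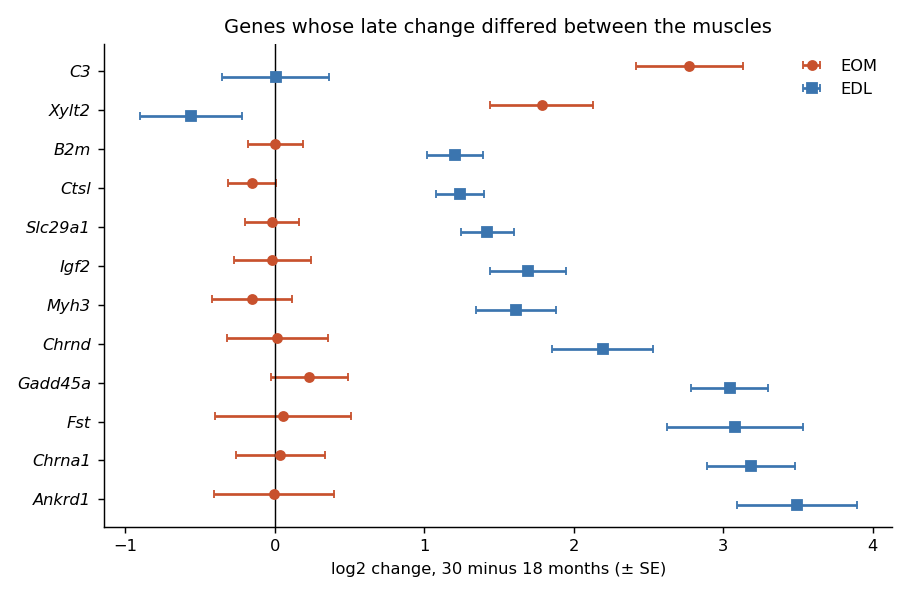
Log2 change between 30 and 18 months in EOM (circles, upper of each pair) and EDL (squares). Bars give the standard error in the fit of all 24 arrays. The genes are those whose changes, read from the brightest probe set, differed between the muscles. C3 and Xylt2 lie to the right in EOM (2.77 and 1.78), while in the other 10 EOM lies between -0.16 and 0.23 and EDL at 1.20 or more.

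Genes of fat cells and lipid synthesis mostly had positive values, without a call. Of 28 tested, 0 were called, 23 (82.1%) had a positive change and 7 (25%) an unadjusted p under 0.05, all positive. Over all 3214 named genes 42.7% were positive and 3.05% had such a p. The list was chosen with earlier results of these data known, and its members can move together. Such shares are therefore descriptions and not tests, here and for the lists below. The median was 0.17, against -0.40 between 18 and 6 months and -0.15 between 30 and 6 months, comparisons that share arrays. Fatty acid synthase (Fasn) read 882.6, 1623, 1960 and 3288 at 30 months, against 669.7, 793.4, 998.7 and 960.3 at 18 months (1.04, unadjusted p = 0.00582). Replicate 1 at 30 months fell among the 18-month pools, and replicates 2, 3 and 4 lay above them.

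In Fabp5 and Elovl5 too, replicates 2, 3 and 4 at 30 months lay above all the 18-month pools. Fabp5, a fatty acid carrier of skin and glands, read 1824, 3717, 4859 and 8634 at 30 months, against 1708, 2059, 1832 and 2204 at 18 months (1.08). Elovl5, which lengthens polyunsaturated fatty acids, read 3400, 5599, 7866 and 11051 at 30 months, against 2841, 2814, 3553 and 4598 at 18 months (0.92). Acly, which makes acetyl-CoA in the cytosol, gave 0.66, Dgat1, which completes triglycerides, 0.60, Pparg, the regulator of fat cell formation, 1.02, and Cidea, a lipid droplet protein, 0.89. Pparg was a low signal, 67.9 to 134.4 at 30 months, against 26.3, 102.9, 26.6 and 86.2 at 18 months. Its replicate 3 at 18 months lay below the floor, and its groups overlapped. In Acly and Cidea replicate 1 (3949 and 688.0) and replicate 2 (3428 and 677.5) at 30 months lay inside the 18-month range. Acaca, the acetyl-CoA carboxylase that feeds Fasn, gave 0.15 at a low signal of 59.0 to 127.2 at 30 months.

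Smaller values were found both in genes of lipid synthesis and in genes known from fat cells. Among the synthesis genes, Scd gave 0.20, Scd2 0.08, Acacb 0.08 and Gpam -0.35. Fabp4, the fatty acid carrier of fat cells, gave 0.16, hormone-sensitive lipase (Lipe) 0.18, leptin (Lep) -0.27 and adipsin (Cfd) -0.35. Averaged over the list, the deviation from the mean of all EOM arrays was -0.26, -0.21, 0.32 and 0.42 on the 30-month arrays in replicate order, against -0.34, -0.30, -0.22 and -0.15 on the 18-month arrays. Replicates 1 and 2 at 30 months lay within the 18-month range, and replicates 3 and 4 above it. Between samples of the same number the 30-month array was the higher in all 4 pairs, by 0.08, 0.09, 0.53 and 0.57 in replicate order. Of the 28 members, 9 (32.1%) were higher at 30 months in all 4 pairs, against 184 of 3214 named genes (5.72%), and with the replicate block none was called. The pairing was itself taken from these arrays, so these shares too are descriptions and not tests. Replicates 1 and 2 alone gave a list median of 0.19, against 0.51 in replicates 3 and 4 alone, and without replicate 3 at 30 months the median over the ages was 0.08. Since these are whole muscles, a change in the number of cells and a change in RNA per cell cannot be told apart. This holds here and for every other marker list.

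Markers of orbital glands and epithelium also differed between the pools. Their mean deviation was -0.61, -0.06, 0.12 and 0.36 on the 30-month arrays, against -0.73, -0.49, 0.42 and 0.37 on the 18-month arrays, and the summed signal of the tested members ran from 16802 to 26648 at 30 months and from 19118 to 53464 at 18 months. Without Spt1, described next, the sums ran from 16530 to 26393 at 30 months and from 18956 to 22847 at 18 months. Their part in the lipid values, or in those of Klk1 and C3, was not tested. No epithelial keratin was called. Krt8 read 81.6, 189.2, 193.9 and 305.2 at 30 months, against 45.5, 46.6, 101.0 and 88.3 at 18 months (1.40, unadjusted p = 0.00578), and the groups overlapped. Krt5 gave 1.39, Krt19 0.67, the tight junction protein Cldn7 1.58 and the epithelial adhesion molecule Epcam 1.05. Of the 20 members tested, 0 were called, 1 with the replicate block (Klk1), and 10 were positive. The median change of the list was 0.04. Krt8, Krt5, Krt19, Cldn7 and Epcam are among the positive members and do not stand for the list.

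The same list holds the 2 most negative values of the comparison. Spt1, a salivary secretory protein, read 160.1, 254.7, 272.7 and 229.2 at 30 months, against 161.9, 164.3, 24664 and 31849 at 18 months. Pip, the prolactin-induced secretory protein, read 30.3, 33.4, 79.6 and 64.7 at 30 months, against 13.3, 79.5, 3294 and 3573 at 18 months. In both genes replicates 3 and 4 of the 18-month group stood far above all other pools of these ages, and the fitted log2 changes of -3.25 and -3.03 were not called. At 6 months too Spt1 was higher in replicates 3 and 4 (16579 and 5775) than in replicates 1 and 2 (603.0 and 823.2). Within replicates 3 and 4 the change of Spt1 was -6.81 (adjusted p = 0.00441), and within replicates 1 and 2 it was 0.31.

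**Figure D5:**
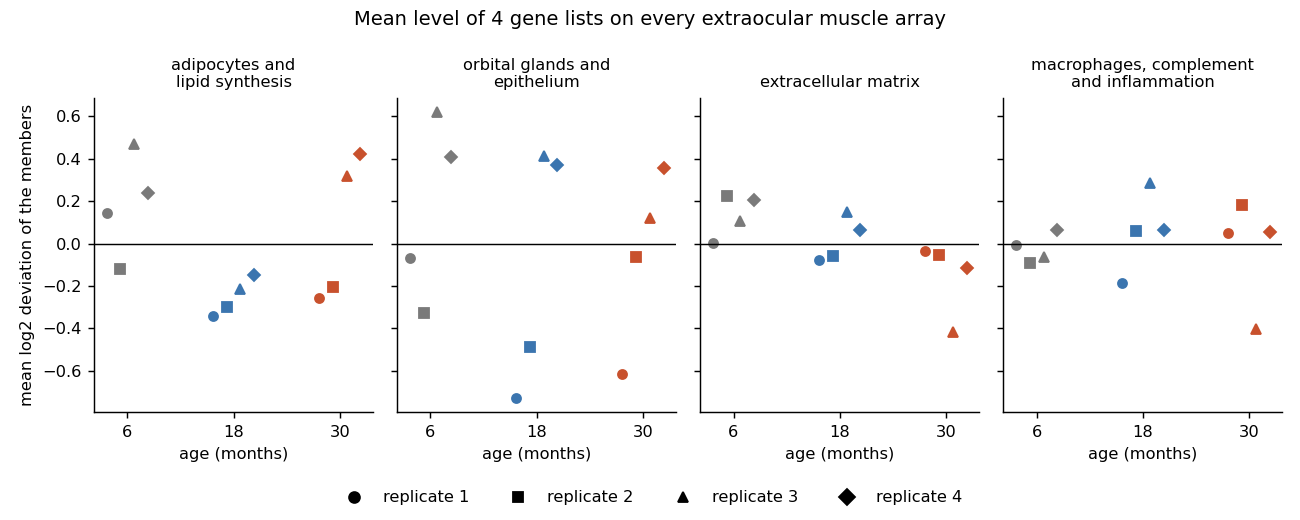
Mean log2 deviation of the tested members of 4 gene lists from their mean over the 12 EOM arrays, on every array, by age in months; symbols give the replicate number. At 30 months the lipid list runs from -0.26 in replicate 1 to 0.42 in replicate 4, and replicate 3 is lowest for matrix (-0.42) and macrophage genes (-0.41).

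Of 43 extracellular matrix genes tested, 0 were called, and most had negative values. Positive changes were seen in 9 (20.9%, against 42.7% of all named genes), and the median was -0.21. Col1a2, a chain of type I collagen, read 1771, 1628, 884.1 and 1441 at 30 months, against 1994, 2424, 2727 and 2157 at 18 months, a change of -0.74 (unadjusted p = 0.0122) with no overlap. Col1a1, its partner chain, read 1390, 2162, 2438 and 2098 at 30 months, against 2400, 2566, 4689 and 2892 at 18 months (-0.61), with replicate 3 at 30 months inside the 18-month range. Type III collagen (Col3a1) gave -0.69 and Col5a1 -0.30, while tenascin C (Tnc), a protein of matrix remodelling, gave 0.54.

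Col1a1 averaged 5627 at 6 months, 3137 at 18 months and 2022 at 30 months. Col3a1 averaged 4918 at 6 months, 2887 at 18 months and 1943 at 30 months. Replicate 3 at 30 months had the lowest matrix deviation of all EOM arrays, -0.42, where the other 3 arrays of that age lay between -0.11 and -0.03. Without it the median of the list was -0.12. Replicates 1 and 2 alone gave a median of 0.01, and replicates 3 and 4 alone gave -0.43.

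Of 27 tested genes of macrophages, complement and inflammation, C3 was the 1 called. Apart from C3, 5 of 26 were positive (19.2%, against 42.7% of all named genes). The median of all 27 was -0.14. The values of the early complement genes were all negative. C1qb read 1468, 1199, 380.9 and 666.9 at 30 months, against 1047, 1441, 1012 and 1034 at 18 months (-0.45). C1qc gave -0.17, the proteases C1r and C1s -0.11 and -0.14, and their inhibitor Serping1 -0.31. Aif1, a macrophage marker, gave -0.75 with replicate 3 at 30 months below the floor. Cd14, the endotoxin co-receptor, gave -0.23 and the macrophage lysozyme Lyz2 -0.02. Il10, an anti-inflammatory cytokine, read 37.2 to 61.7 at 30 months and 50.3 to 98.8 at 18 months (-0.78, not called), and Il1b, a pro-inflammatory one, 59.5 to 113.8 at 30 months and 3.6 to 70.8 at 18 months (0.77, not called). Replicate 3 at 30 months again had the lowest deviation for this list (-0.41). Its median was 0.15 from replicates 1 and 2 alone, -0.49 from replicates 3 and 4 alone, and -0.0049 without replicate 3 at 30 months.

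Antigen presentation had a median of -0.13 over 20 genes. B2m, the light chain of class I molecules, gave 0.00 (interval -0.31 to 0.32), and Psmb8, an immunoproteasome subunit, read 512.0, 570.6, 239.1 and 307.4 at 30 months, against 421.3, 346.7, 362.7 and 265.8 at 18 months (0.15). Nerve and Schwann cell genes had a median of -0.06 over 23. Sox10, the transcription factor of Schwann cells, read 123.9, 133.2, 204.4 and 164.4 at 30 months, against 91.1, 68.1, 93.1 and 99.1 at 18 months (0.82, unadjusted p = 0.00459), with no overlap and no call. The myelin genes Mbp and Pmp22 gave 0.16 and -0.12, and the neurofilament Nefm 0.43.

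Of 9 tested genes of the circadian clock 1 was positive and the median was -0.31, with 4 intervals inside 2-fold and no call. Dbp, an output gene of the clock, read 813.0, 1100, 432.6 and 301.9 at 30 months, against 759.7, 1377, 676.8 and 804.7 at 18 months (-0.57). Per2 and Nr1d1, repressors in the clock loop, gave -0.31 and -0.33, and the activator Bmal1 gave 0.86 (SE 0.55). Bmal1 read 271.1, 123.6, 242.7 and 373.5 at 30 months, against 259.7, 30.7, 171.2 and 207.9 at 18 months. Its groups overlapped, and its change ran from 0.16 to 1.39 over the alternative settings. The sources used here do not give the time of day of dissection, and its part in these values was not tested. None of the remaining lists held a call. Immediate early genes had a median of -0.08 over 30 genes, myogenic regulators and growth factors -0.02 over 41, apoptosis and lysosomal proteases -0.09 over 27, and solute carriers and channels -0.02 over 23. Among markers of other cell types, T and B lymphocytes gave -0.17 over 9, endothelium 0.05 over 11, smooth muscle 0.03 over 13, erythrocytes 0.06 over 6, retina and lens -0.25 over 6, cartilage and bone -0.16 over 5, and mast cells -0.16 over 4.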

How the data were processed

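RNA of EOM and EDL was measured on 24 arrays of the Affymetrix Rat Genome U34 type, 1 sample per array, each sample pooled from 4 animals. The deposited values are intensity values, made by the authors with Affymetrix Microarray Suite 5.0 per the submitters' processing notes and the design text; the sources used here do not give its scaling target. The labels name Cy3 and Cy5, but the design text describes biotinylated cRNA, and the arrays were treated as 1-colour.

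The 25th percentile of each array served as a floor for its signals before the log2 step. Testing required a signal above the array's 40th percentile on 3 of 4 arrays of at least 1 EOM group. All 12 EOM arrays were fitted in limma 3.58.1 (R 4.3.3) with 1 mean per age, an intensity trend and Benjamini-Hochberg adjustment over 5362 probe sets; a call is an adjusted p under 0.05. Adjusted p-values in the text come from limma. The EOM change minus the EDL change was fitted on all 24 arrays, over 5741 probe sets. A gene was read from its brightest probe set, and 3214 named genes were tested. The number of arrays limits the precision, and a probe set's level was not set against another's.

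Same-numbered EOM samples deviated together between 30 and 18 months (correlations of deviations 0.467, 0.180, 0.246 and 0.463), so the numbers were taken to pair them, from the data and not from a label, and values with the replicate block are given where a call changed. The pairing with the 6-month samples was less clear. Between 18 and 6 months, replicates 1 and 2 gave 0.137 and 0.147, below their highest correlations with another number (0.243 and 0.211). Between 30 and 6 months, replicate 1 gave 0.135, against 0.240, while replicates 2, 3 and 4 gave 0.380, 0.543 and 0.402.

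Genes were named if called, then the 6 smallest p-values in each direction, then the called and up to 4 defining members of each of 30 lists; of the muscle differences, the 5 largest in each direction were taken. Other genes named in the text, among them Ctse, Tc2n and Mgst1, were chosen after their values were seen. Members and lists were chosen with earlier results of these data known.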

Additional observations from a re-analysis of the deposited data

Results flagged for a closer look

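Among 90 genes checked in the 30-month and 18-month EOM groups (180 groups of 4), 12 had 1 pool far from the other 3. Chance gives about 1 in 20 groups, a share close to the one seen, so a pool listed below need not stand apart for more than chance.

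At 30 months the separate pools were high ones. Chrna1 read 2066 in replicate 1, against 1657 to 1699 in the other 3 pools. Chrng read 650.8 in replicate 4, against 385.2 to 423.0. Dgat1 read 1805 in replicate 4, against 840.3 to 946.4.

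At 18 months, replicate 1 stood apart for Xylt2 (133.1, against 50.4 to 59.3) and Ttc38 (182.6, against 157.2 to 160.3). Replicate 2 was high for C1qb (1441, against 1012 to 1047). Replicate 3 was high for Plpp3 (2342, against 1788 to 1832), Gap43 (307.0, against 196.2 to 204.6) and Cd14 (331.1, against 189.2 to 207.0), and low for Sod1 (4654, against 6327 to 6657). Replicate 4 was high for Myh1 (198.4, against 66.7 to 86.3) and Lipe (818.1, against 550.4 to 580.4).

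The change between 30 and 18 months differed between EOM and EDL for 13 genes, by the interaction term in limma. The EOM change minus the EDL change was 2.77 for C3 and 2.35 for Xylt2. It was -3.50 for Ankrd1, -3.15 for Chrna1, -3.02 for Fst, -2.81 for Gadd45a, -2.45 for Klk1 (read from its second probe set), -2.18 for Chrnd, -1.77 for Myh3, -1.71 for Igf2, -1.44 for Slc29a1, -1.40 for Ctsl and -1.20 for B2m. The EDL change of C3 is that of the floor. The calls of Xylt2, Chrnd, Fst, B2m, Myh3, Igf2 and Slc29a1 depended on the setting, as given above.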

How the results depend on the processing

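With 1 probe set called higher (C3), the count of higher calls was also 1, again C3, with all 24 arrays in the fit, quantile normalisation, a floor at the 10th percentile, no intensity trend and array weights. It was 2 with arrays centred on their median (C3 and Ttc38) and with log2(value + 32) in place of a floor (C3 and Xylt2), and 3 with the replicate block (C3, Xylt2 and Klk1), which changed no other call. It was 0 with only the 8 arrays of the 2 ages (158 probe sets at an unadjusted p under 0.05), with no filter (220), with the filter at the array median (136), within replicates 1 and 2 (156) and within replicates 3 and 4 (299), all in limma. The count of lower calls was 1 within replicates 3 and 4 (Spt1) and 0 under every other limma setting run. The rule after the design text gave 8 higher and 1 lower. Leaving out 1 array gave 0 to 4 higher and 0 lower. The 4 came without replicate 1 at 30 months (C3, Ttc38, Ugdh and Adh1c), and without replicate 1 at 18 months Xylt2 was the 1 call. In 2 settings chosen after seeing the data, replicates 2 to 4 of both ages gave 3 higher, and 18 months with replicates 1 and 2 gave 0. C3 had a positive change in all 22 alternatives and was called in 10, with adjusted p from 0.000323 to 0.998.

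The muscle difference gave 2 higher and 17 lower. Quantile normalisation gave 1 higher, median centring 1 higher and 10 lower, and no filter 1 higher. In EDL the correlations of same-numbered samples between 30 and 18 months were 0.060, 0.286, 0.336 and 0.379; since replicate 1 fell short of the 0.1 asked of every pair, the numbers were not taken to pair the EDL samples, and a replicate block gave 5 higher and 38 lower. Leaving out 1 array gave 1 to 5 higher and 11 to 25 lower. No value changed sign past the threshold. Causes of these shifts were not tested. Pools of 4 animals, signals near the floor and 4 arrays an age limit what could be detected.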
